A study of Mus musculus with 12 samples.

Results

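Txnip, Arrdc4, Sesn3, Pik3r1 and Trp53inp2 are 5 of the 52550 genes listed in the count tables of a study of mouse embryonic stem (ES) cells treated with JQ1. They were chosen by their JQ1 response: all are described as brakes on cell growth or on PI3K signalling, and all had more RNA with JQ1 than with the vehicle DMSO in each of 3 culture settings. Their JQ1 values are therefore given as a description, with no test. The tests below concern their level without JQ1 in one setting against another, which the choice did not use, and the other genes of their pathways. The lists of those other genes were drawn up with earlier results of these data known, so their tests are not independent of the choice. JQ1 is a small molecule that displaces BET proteins from acetylated chromatin.

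The study used unmodified ES cells grown in 2iL with JQ1 or DMSO, GSK3 knockout ES cells grown in serum/LIF with JQ1 or DMSO, and unmodified ES cells grown in serum/LIF with JQ1 or DMSO, which makes 6 groups of 2 RNA-seq libraries. JQ1 was given at 100 nM, and cells were harvested at 60 h. The medium 2iL is free of serum and holds N2 and B27 supplements, LIF, the MEK inhibitor PD0325901 and an inhibitor of GSK3. Serum/LIF is a serum medium with LIF, and cells in it had been kept on mitotically inactive mouse embryonic fibroblasts and moved to gelatin before the experiment. The labels call the modified cells GSK3 knockout without saying how many clones they came from. They do not say whether the 2 libraries of a group came from separate cultures. The p-values thus speak to the variation among the libraries at hand, and that variation may be technical.

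Txnip and Arrdc4 encode alpha-arrestins, adaptor proteins that bring membrane transporters to ubiquitin ligases. Both are known to lower glucose uptake, and Txnip also binds and inhibits thioredoxin. Their transcription is a well-known readout of MondoA (Mlxip) and ChREBP (Mlxipl), glucose-sensing factors that bind DNA with Mlx at paired E-box-like elements. Sesn3 encodes a sestrin, a stress-inducible protein that restrains mTORC1 through the GATOR complexes and is a known target of FoxO factors, which PI3K and AKT keep out of the nucleus. Pik3r1 encodes p85 alpha and shorter forms, regulatory subunits that stabilise the catalytic p110 subunits of class IA PI3K and hold them inactive until a receptor recruits them. Trp53inp2, also called DOR, encodes a protein that leaves the nucleus on starvation and takes part in autophagosome formation, and that also acts as a coactivator of the thyroid hormone receptor.

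The genes lie on 5 chromosomes (mm10, GRCm38): Txnip at chr3:96557957-96561883 on the plus strand, Arrdc4 at chr7:68736995-68749241 on the minus strand, Sesn3 at chr9:14275067-14333101 on the plus strand, Pik3r1 at chr13:101680563-101768217 on the minus strand and Trp53inp2 at chr2:155381059-155389850 on the plus strand. The promoters of the Txnip and Arrdc4 pair and of Sesn3 are shown because the first 2 genes share known regulators and the third is known for another. Each line gives the 250 bases before the RefSeq start (GRCm38.p6), 5′ to 3′ in the direction of the gene, with matches to the motifs searched in capitals. The Txnip line is chr3:96557707-96557956, plus strand. The Arrdc4 line is chr7:68749239-68749488, minus strand. The Sesn3 line is chr9:14276051-14276300, plus strand. The gene spans above are from GENCODE M21. The RefSeq starts used for Sesn3 and Trp53inp2 lie inside those spans, so the bases before their GENCODE starts were not searched.
Txnip: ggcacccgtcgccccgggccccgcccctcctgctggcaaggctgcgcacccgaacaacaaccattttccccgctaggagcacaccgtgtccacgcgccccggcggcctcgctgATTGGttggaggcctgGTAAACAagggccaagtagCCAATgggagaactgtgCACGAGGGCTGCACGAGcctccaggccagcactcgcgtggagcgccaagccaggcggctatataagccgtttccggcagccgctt
Arrdc4: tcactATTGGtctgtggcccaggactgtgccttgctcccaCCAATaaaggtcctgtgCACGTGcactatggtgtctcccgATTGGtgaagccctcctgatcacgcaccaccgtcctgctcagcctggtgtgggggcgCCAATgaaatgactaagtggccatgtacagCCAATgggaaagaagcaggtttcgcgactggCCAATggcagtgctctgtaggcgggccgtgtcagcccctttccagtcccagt
Sesn3: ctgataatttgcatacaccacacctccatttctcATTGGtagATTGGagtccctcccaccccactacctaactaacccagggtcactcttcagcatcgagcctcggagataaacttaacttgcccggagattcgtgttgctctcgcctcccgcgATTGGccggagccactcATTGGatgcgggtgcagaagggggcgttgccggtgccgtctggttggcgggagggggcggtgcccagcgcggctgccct

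Both strands of the window of 300 bases, which also takes in 50 bases from the start, were searched for 4 motifs. Txnip held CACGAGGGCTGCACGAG, a match to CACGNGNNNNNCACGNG (a pair of E-box-like elements), which begins 85 bases before the start. This pair was found in 16 of 32851 RefSeq windows of the same length, or 0.05%. Only this form was searched, with both elements in the same direction and 5 bases between them. Other paired forms were not searched, so a window without a match may hold another form. The Txnip window also held GTAAACA, a FoxO-type motif, 121 bases before the start. GTAAACA was found in 3.65% of the windows. Arrdc4 held a single CACGTG E-box 193 bases before its start, a motif found in 7.15% of the windows, and it held neither the pair nor the FoxO-type motif. The share of windows with CCAAT was 37.41%. It occurred 6 times in the Arrdc4 window, 4 times in that of Sesn3 and 2 times in those of Txnip and Trp53inp2. Pik3r1 has 2 RefSeq windows, and CCAAT occurred 1 time in the upstream one and not in the other. No other match to the 4 motifs lay in the 6 windows of the 5 genes, and the matches did not overlap each other.

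The 12 libraries held between 17869865 and 48723436 expected counts. The deepest was the first serum/LIF DMSO library, and the next held 29882439. Levels are given as CPM scaled by TMM, which is relative to library size, and as the deposited TPM, which is also divided by transcript length, where genes are compared with each other. Both knocked-out genes kept counts: Gsk3a had 23.4 to 32.9 CPM in the 4 knockout libraries against 65.1 to 129.9 CPM in the 8 libraries of unmodified cells. Gsk3b had 42.5 to 61.1 CPM in knockout libraries against 72.2 to 158 CPM in the others. All 8 ES cell markers were present in every group, with summed levels of 1634 to 4055 CPM. Fibroblast markers, of which 9 of 10 were tested, moved with the settings and with JQ1. Their summed level was 7.20 to 9.45 CPM with JQ1 and 10.4 to 15.7 CPM with DMSO in 2iL, 172 to 226 CPM with JQ1 and 303 to 471 CPM with DMSO in the knockout, and 899 to 1239 CPM with JQ1 and 1167 to 1373 CPM with DMSO in unmodified serum/LIF cells. In bulk RNA, a change in the share of such cells and a change per cell cannot be told apart. The share of counts from mitochondrially encoded genes was lower with JQ1 than with DMSO in each setting, with an overall range of 4.67% to 11.9%, and its part in the results was not tested beyond a fit without those genes.

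Txnip was the most abundant of the 5 genes per length and differed most between groups. In 2iL it had 490.2 and 629.6 CPM in the JQ1 libraries, against 211 and 227 CPM in the DMSO libraries. In the knockout it had 240.1 and 246 CPM with JQ1, against 104.5 and 98.0 CPM with DMSO. In unmodified serum/LIF cells it had 215 and 208 CPM with JQ1, against 65.8 and 69.2 CPM with DMSO. JQ1 libraries were above DMSO libraries in each setting, and the 2iL libraries with DMSO were at the level that serum/LIF cells reached with JQ1. The log2 fold change was 1.35 ± 0.12 (SE, 2 libraries a group) in 2iL, 1.26 ± 0.12 in the knockout and 1.65 ± 0.12 in unmodified serum/LIF cells. Txnip ranked 78th of 16987 genes in serum/LIF by its rise, 314th in 2iL and 322nd in the knockout. Txnip overlaps the antisense gene Gm15441, and whether the authors counted by strand is not given in the sources used here. Gm15441 was assigned between 1.16 and 16.58 expected counts per library, against 1353 to 14601 for Txnip.

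Arrdc4, the other alpha-arrestin, had the smallest differences with JQ1, and they varied most with the setting. In 2iL it had 57.7 and 63.9 CPM with JQ1, against 46.4 and 48.1 CPM with DMSO. In the knockout it had 42.0 and 39.98 CPM with JQ1, against 25.1 and 27.1 CPM with DMSO. In unmodified serum/LIF cells it had 52.6 and 51.2 CPM with JQ1, against 25.1 and 28.96 CPM with DMSO. The log2 fold change was 0.37 ± 0.11 in 2iL, where the DMSO level was highest, 0.65 ± 0.12 in the knockout and 0.95 ± 0.11 in serum/LIF. The 2iL value depended on how length was treated. On the deposited TPM, Arrdc4 had 29.6 and 31.1 TPM with JQ1, against 26.7 and 30.25 TPM with DMSO in 2iL, groups that overlap, with a log2 difference of 0.09. The corresponding TPM differences were 0.46 in the knockout and 0.77 in serum/LIF.

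Sesn3 was higher with JQ1 by similar factors in the 3 settings, from different starting levels. In 2iL it had 102.5 and 126 CPM with JQ1, against 34.0 and 50.7 CPM with DMSO. In the knockout it had 56.1 and 53.1 CPM with JQ1, against 22.7 and 18.1 CPM with DMSO. In unmodified serum/LIF cells it had 109 and 95.6 CPM with JQ1, against 36.4 and 45.8 CPM with DMSO. The knockout libraries were the lowest of each treatment, and the knockout with JQ1 was just above the DMSO libraries of the other settings. The log2 fold change was 1.43 ± 0.19 in 2iL, 1.42 ± 0.19 in the knockout and 1.32 ± 0.19 in serum/LIF. Sesn3 also had the widest spread between libraries of a group, with a pooled SD of 0.24 on the log2 scale and up to 1.49-fold between the 2 libraries of a group.

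Pik3r1, the PI3K regulatory subunit, had the lowest level per length of the 5 genes and close to the same JQ1 difference in each setting. In 2iL it had 72.6 and 63.5 CPM with JQ1, against 28.9 and 30.6 CPM with DMSO. In the knockout it had 33.6 and 29.8 CPM with JQ1, against 16.9 and 13.3 CPM with DMSO. In unmodified serum/LIF cells it had 35.1 and 30.4 CPM with JQ1, against 14.4 and 14.2 CPM with DMSO. The 2iL JQ1 libraries stood above all others, and the 2iL DMSO libraries lay at the level of the JQ1 libraries in serum/LIF. The log2 fold change was 1.19 ± 0.14 in 2iL, 1.07 ± 0.14 in the knockout and 1.19 ± 0.14 in serum/LIF. Models named Gm36638, of unclear status, lie within Pik3r1 on the same strand and were assigned at most 9 expected counts in a library, against 237 to 1472 for Pik3r1.

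Trp53inp2, the autophagy factor, had its largest JQ1 difference in the knockout, where it was lowest with DMSO. In 2iL it had 56.2 and 45.3 CPM with JQ1, against 29.5 and 21.6 CPM with DMSO. In the knockout it had 36.7 and 35.7 CPM with JQ1, against 13.0 and 13.4 CPM with DMSO. In unmodified serum/LIF cells it had 63.3 and 55.8 CPM with JQ1, against 31.2 and 26.4 CPM with DMSO. The log2 fold change was 0.99 ± 0.16 in 2iL, 1.45 ± 0.17 in the knockout and 1.04 ± 0.16 in serum/LIF. Unlike the other 4 genes, Trp53inp2 was highest in serum/LIF with JQ1, although the libraries of that group overlapped those of 2iL with JQ1.

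**Figure D1:**
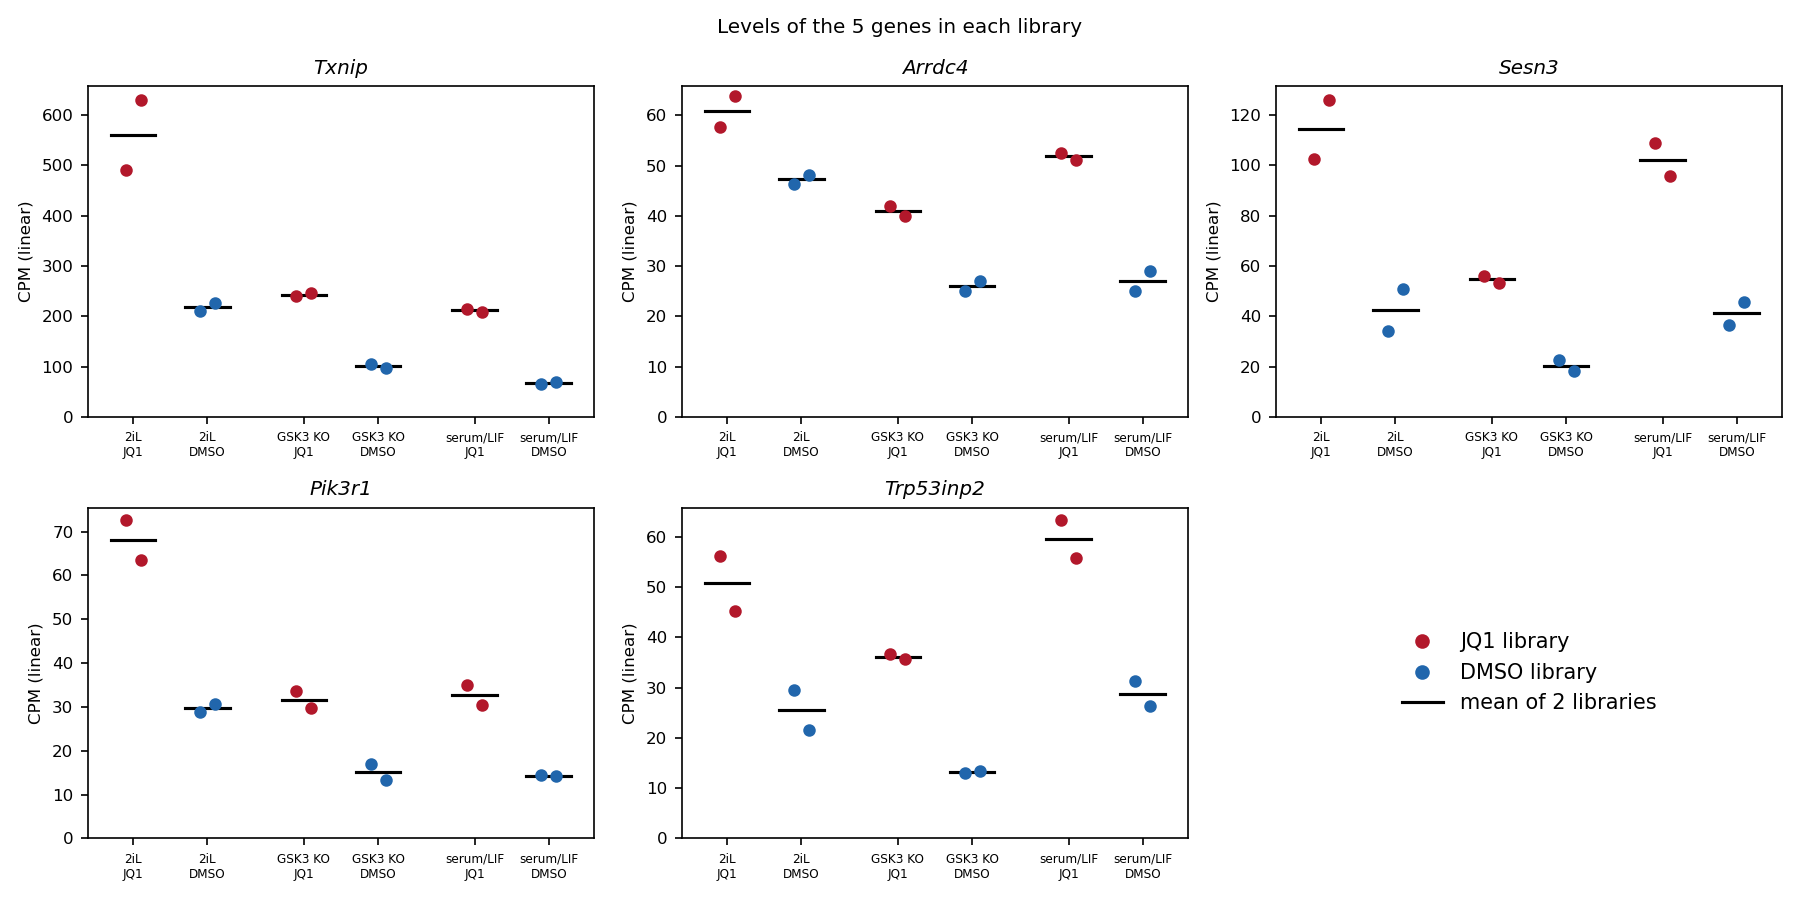
CPM (linear axis) of the 5 genes in each library, with JQ1 libraries in red left of DMSO libraries in blue for 2iL, GSK3 knockout and unmodified serum/LIF cells, and black lines at the means of 2 libraries. In every panel and setting both JQ1 points lie above both DMSO points, and Txnip in 2iL with JQ1 averages 559.9 CPM against 67.5 CPM in serum/LIF with DMSO.

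For all 5 genes, both JQ1 libraries exceeded both DMSO libraries in all 3 settings, a pattern their choice used. Among the 16987 genes tested, 28.2% did so in 2iL, 32.9% in the knockout and 27.2% in serum/LIF. The share that did so in all 3 settings was not computed. Across all genes 11.2% passed as higher and 17.3% as lower with JQ1 in 2iL, 14.6% and 19.5% in the knockout, and 8.54% and 12.8% in unmodified serum/LIF cells (edgeR quasi-likelihood test, adjusted p under 0.05). The smallest of the 3 log2 fold changes was 1.32 for Sesn3, 1.26 for Txnip, 1.07 for Pik3r1, 0.99 for Trp53inp2 and 0.37 for Arrdc4. Of the listed pathway genes that are not among the 5, Arrdc2 came closest with 0.54, followed by Sesn1 with 0.50, Ulk2 with 0.48, Irs2 with 0.46 and Gadd45a with 0.45. The smallest value of Arrdc4 was below those of these 5 genes. Of 9 fibroblast markers tested, 3 passed as lower with JQ1 in 2iL, 6 in the knockout and 7 in serum/LIF, and in 2iL Postn, Dcn and Lum had no count in any of the 4 libraries. Their part in the JQ1 differences of the 5 genes was not tested.

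The size of the JQ1 difference itself could be set side by side between settings. The value for 2iL minus that for serum/LIF was -0.58 ± 0.16 (log2, SE) for Arrdc4, -0.29 ± 0.16 for Txnip, -0.05 ± 0.22 for Trp53inp2, -0.002 ± 0.181 for Pik3r1 and 0.11 ± 0.26 for Sesn3. The value for the knockout minus that for unmodified cells was -0.39 ± 0.17 for Txnip, -0.29 ± 0.16 for Arrdc4, -0.12 ± 0.20 for Pik3r1, 0.10 ± 0.27 for Sesn3 and 0.41 ± 0.23 for Trp53inp2. Both alpha-arrestins thus had their largest JQ1 difference in unmodified serum/LIF cells, where their DMSO levels were lowest or among the lowest. These values were not tested for the 5 genes. Both comparisons share the serum/LIF libraries. Each JQ1 difference is taken against the DMSO libraries of its setting, so it is not independent of the DMSO level. This holds also for Arrdc4 in 2iL and Trp53inp2 in the knockout. Sesn3 was lowest with DMSO in the knockout, where its JQ1 difference was similar to that in the other settings.

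**Figure D2:**
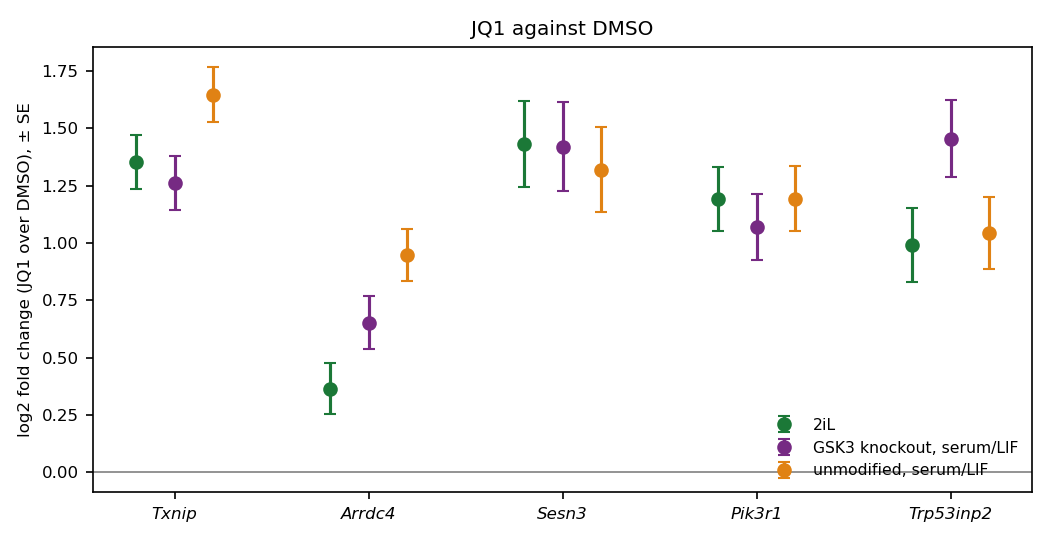
Log2 fold change of JQ1 over DMSO (linear axis, bars ± SE from the edgeR fit, 2 libraries a group) for the 5 genes in 2iL, GSK3 knockout and unmodified serum/LIF cells. Sesn3 and Pik3r1 have overlapping bars in the 3 settings, and Arrdc4 runs from 0.37 in 2iL to 0.95 in serum/LIF.

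Without JQ1, the 5 genes split into 2 patterns. Txnip, Arrdc4 and Pik3r1 were higher in 2iL than in serum/LIF, and Sesn3 and Trp53inp2 were lower in knockout than in unmodified cells. In DMSO libraries Txnip averaged 219 ± 11.2 CPM in 2iL and 67.5 ± 2.44 CPM in serum/LIF (SD, n = 2 libraries each), a log2 fold change of 1.70 ± 0.12 with an adjusted p of 1.08e-07 in edgeR's quasi-likelihood test. Pik3r1 rose by 1.06 ± 0.14 (adjusted p = 3.91e-05, edgeR) and Arrdc4 by 0.81 ± 0.11 (adjusted p = 5.39e-05, edgeR). Sesn3 differed by 0.05 ± 0.19 (adjusted p = 0.845, edgeR) and Trp53inp2 by -0.18 ± 0.16 (adjusted p = 0.364, edgeR). Thus 3 of 5 genes passed as higher and none as lower, where 28.3% of all genes passed as higher and 26.5% as lower. Of the 2 that did not pass, Trp53inp2 passed as lower without the first 2iL DMSO library (-0.47, adjusted p = 0.0412), and Sesn3 turned to -0.32 without the second one and to 0.60 on the deposited TPM.

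The knockout set the genes apart in another way. Against unmodified cells, both in serum/LIF with DMSO, Trp53inp2 averaged 13.2 CPM in the knockout and 28.8 CPM in unmodified cells, a log2 fold change of -1.13 ± 0.17 (adjusted p = 0.000166, edgeR). Sesn3 averaged 20.4 CPM in the knockout and 41.1 CPM in unmodified cells and fell by 1.005 ± 0.193 (adjusted p = 0.00116, edgeR). Txnip rose by 0.59 ± 0.12 (adjusted p = 0.00158, edgeR), to 101 CPM in the knockout, against 67.5 CPM in unmodified cells. Arrdc4 differed by -0.05 ± 0.12 (adjusted p = 0.783, edgeR) and Pik3r1 by 0.08 ± 0.15 (adjusted p = 0.705, edgeR). Thus 1 of 5 genes passed as higher and 2 as lower, beside 18.9% and 21% of all genes. Both comparisons use the serum/LIF DMSO libraries. The calls of the 3 genes that passed in each comparison held without any 1 of the libraries compared.

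Other markers differed between these cultures too. Fibroblast markers summed to 303 to 471 CPM in the knockout and 1167 to 1373 CPM in unmodified serum/LIF cells with DMSO, and trophoblast markers to 45.7 to 53.4 CPM in the knockout and 843 to 1728 CPM in unmodified cells. In 2iL with DMSO the fibroblast markers summed to 10.4 to 15.7 CPM and the trophoblast markers to 6.495 to 8.077 CPM, and Col3a1, Postn, Dcn and Lum had no count there. Markers of early lineages differed as well: primitive endoderm markers summed to 74.9 to 112 CPM in 2iL, 521 to 747 CPM in the knockout and 259 to 280 CPM in unmodified serum/LIF cells, all with DMSO. Neuroectoderm markers summed to 71.2 to 79.9 CPM in 2iL, 34.3 to 40.9 CPM in the knockout and 266 to 366 CPM in serum/LIF. Mesendoderm markers summed to 19.1 to 28.9 CPM in 2iL, 136 to 148 CPM in the knockout and 140.0 to 205 CPM in serum/LIF, where they summed to 32.0 to 33.0 CPM with JQ1. The part of other cells in the differences of the 5 genes between these cultures was not tested.

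**Figure D3:**
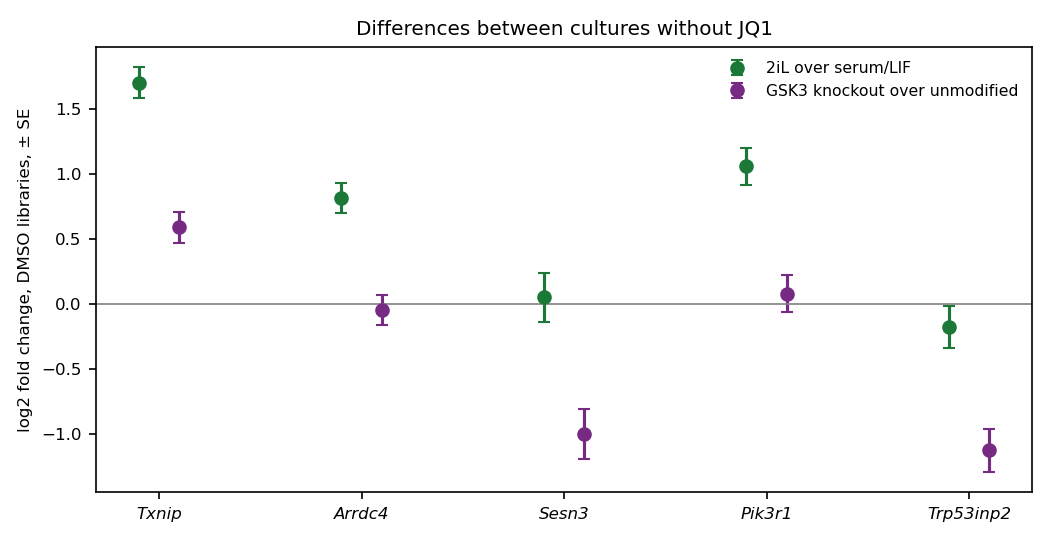
Log2 fold change between DMSO libraries (linear axis, bars ± SE from the edgeR fit, 2 libraries a group) of 2iL over serum/LIF in green and of GSK3 knockout over unmodified cells in purple. Txnip, Arrdc4 and Pik3r1 lie above 0 in 2iL, and Sesn3 and Trp53inp2 lie near -1 in the knockout.

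The order of the 6 groups, drawn from the same libraries, showed the split seen without JQ1 only in part. Txnip ran from 2iL with JQ1 through knockout with JQ1, 2iL with DMSO, serum/LIF with JQ1 and knockout with DMSO to serum/LIF with DMSO, and only the libraries of 2iL with DMSO and serum/LIF with JQ1 overlapped as neighbours. For Pik3r1 the serum/LIF JQ1, knockout JQ1 and 2iL DMSO groups overlapped in turn at means of 32.7, 31.7 and 29.8 CPM. For Arrdc4, 2iL with DMSO at 47.2 CPM stood above knockout with JQ1 at 41.0 CPM. Like that of Sesn3, the order of Arrdc4 began with 2iL and serum/LIF with JQ1. It ended with serum/LIF and knockout with DMSO, which overlapped. For Sesn3 and Trp53inp2 the order began with the 2iL and serum/LIF groups with JQ1, which overlapped, and went on through knockout with JQ1 to the 2iL and serum/LIF groups with DMSO, which overlapped as well, and ended with knockout with DMSO. Per length, in serum/LIF with DMSO, Txnip had a mean of 34.0 TPM, Arrdc4 13.1 TPM, Trp53inp2 9.14 TPM, Sesn3 5.02 TPM and Pik3r1 2.52 TPM. In 2iL with JQ1 the means were 290.0 TPM for Txnip, 30.3 TPM for Arrdc4, 18.6 TPM for Trp53inp2, 18.5 TPM for Sesn3 and 12.3 TPM for Pik3r1.

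Across the 12 libraries, Pearson's r of log2 CPM was 0.97 between Txnip and Pik3r1, 0.93 between Arrdc4 and Pik3r1, 0.92 between Txnip and Arrdc4 and 0.92 between Sesn3 and Trp53inp2. Between genes of different patterns r was 0.85 for Arrdc4 and Sesn3, 0.82 for Sesn3 and Pik3r1 and 0.75 for Arrdc4 and Trp53inp2. It was 0.73 for Txnip and Sesn3, 0.71 for Pik3r1 and Trp53inp2 and lowest for Txnip and Trp53inp2, at 0.59. These values describe 12 libraries that share groups and treatment, and the patterns were drawn from the same libraries. The 5 genes were chosen for rising with JQ1 in all 3 settings, a choice that favours high r between them. Over genes with at least 5 CPM in a group, the median r was 0.14 with Txnip, 0.09 with Arrdc4, 0.02 with Sesn3 and 0.11 with Pik3r1. Among 11911 genes with at least 5 CPM in a group, the 3 with the highest r were Uck2, Stk38l and Ranbp9 for Txnip (0.98 to 0.99) and Fam53a, Klf10 and Zbtb18 for Arrdc4 (0.96 to 0.97). They were Tle1, Dennd6a and Cab39l for Pik3r1 (all 0.98), Nek9, Rab3gap1 and Arcn1 for Sesn3 (0.96 for each) and Cdkn2aip, Herpud2 and Pias1 for Trp53inp2 (0.97 for each). With Spearman's rank correlation, Rab3gap1 stayed among the first 3 for Sesn3 and Cdkn2aip for Trp53inp2, and no gene did for the other 3.

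The closest relatives of the 5 genes did not all follow them. Among the sestrins, Sesn1 rose with JQ1 in serum/LIF by 0.70 ± 0.14 (adjusted p = 0.00468, edgeR) and in the knockout by 0.89 ± 0.13 (adjusted p = 0.000332). In 2iL its value was 0.50 ± 0.13 (adjusted p = 0.0117), and the call was lost without the second DMSO library (adjusted p = 0.0584) or the first JQ1 library (adjusted p = 0.121). The serum/LIF call was lost when only those 4 libraries were fitted (adjusted p = 0.0532). Without JQ1, Sesn1 was higher in both 2iL (2.24 ± 0.14, adjusted p = 3.84e-08) and the knockout (1.41 ± 0.14, adjusted p = 6.53e-06), unlike Sesn3. Sesn2 was the most abundant sestrin, at 72.6, 63.5 and 48.5 TPM with JQ1 and 59.6, 50.6 and 39.0 TPM with DMSO in 2iL, the knockout and serum/LIF. Its JQ1 values were 0.27, 0.34 and 0.15 on the log2 scale. The knockout value passed (adjusted p = 0.0448), and the call was lost without any 1 of the 4 libraries (adjusted p = 0.0683 to 0.253).

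Among the alpha-arrestins, Arrdc2 had JQ1 values of 0.77 ± 0.22 in 2iL (adjusted p = 0.0213, edgeR), 0.54 ± 0.22 in the knockout (adjusted p = 0.0791) and 0.54 ± 0.23 in serum/LIF (adjusted p = 0.115). The 2iL call was lost without any 1 of its 4 libraries (adjusted p = 0.0539 to 0.116), and the serum/LIF value passed without the first JQ1 library (adjusted p = 0.0186). Arrdc3 differed by -0.04 in 2iL, 0.39 in the knockout and 0.45 in serum/LIF, none past the test. Arrdc1 had -0.73 ± 0.19 in 2iL (adjusted p = 0.0142), a call lost without the first DMSO library (adjusted p = 0.125) or the second JQ1 library (adjusted p = 0.114), and values of 0.01 in the knockout and -0.07 in serum/LIF. Txn1, the thioredoxin that Txnip binds, rose in the knockout by 0.58 ± 0.13 (adjusted p = 0.00535), a call lost without the first DMSO library (adjusted p = 0.0639), and differed by 0.07 in 2iL and 0.08 in serum/LIF. Of the glucose-sensing factors, Mlxipl fell with JQ1 in 2iL (-2.33 ± 0.25, adjusted p = 3.89e-05) and in the knockout (-1.75 ± 0.25, adjusted p = 0.000298), where Txnip was higher. Its serum/LIF value of -0.59 ± 0.24 did not pass (adjusted p = 0.104), except without the second JQ1 library (adjusted p = 0.0292). Mlxip differed by 0.35, -0.12 and 0.38 and Mlx by 0.17, 0.29 and 0.16 in 2iL, the knockout and serum/LIF, none past the test. Mlxip passed in 2iL without the second DMSO library (adjusted p = 0.0407) and in serum/LIF without the second JQ1 library (adjusted p = 0.0326).

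Other PI3K subunits, both regulatory and catalytic, moved in several directions. Pik3r3, another regulatory subunit, rose in serum/LIF (1.20 ± 0.24, adjusted p = 0.0037, edgeR) and fell in the knockout (-1.17 ± 0.25, adjusted p = 0.00355), with 0.35 in 2iL (adjusted p = 0.282). Its response differed between knockout and unmodified cells by -2.37 ± 0.34 (adjusted p = 0.00293). Pik3r2 was the most abundant regulatory subunit at 19.8 to 29.3 TPM over the group means, and its JQ1 values of 0.14, 0.14 and 0.20 did not pass. The catalytic subunit Pik3ca differed by 0.10, -0.04 and 0.04 (none passed), whereas Pik3cd fell in 2iL (-1.21 ± 0.24, adjusted p = 0.0027) and in the knockout (-2.23 ± 0.24, adjusted p = 3.1e-05). Pik3cd also passed as lower in serum/LIF (-0.74 ± 0.22, adjusted p = 0.0311), and this call was lost without the first (adjusted p = 0.111) or second DMSO library (adjusted p = 0.0885) or the first JQ1 library (adjusted p = 0.212). Pik3cb had 0.69 ± 0.20 in 2iL (adjusted p = 0.0196), lost without the first DMSO library (adjusted p = 0.128) or either JQ1 library (adjusted p = 0.0732 and 0.0939), 0.18 in the knockout and 0.50 in serum/LIF (adjusted p = 0.0812). The serum/LIF value of Pik3cb passed without the first DMSO library (adjusted p = 0.0469) or the second JQ1 library (adjusted p = 0.0133). Of the FoxO factors, Foxo3 rose in 2iL by 0.70 ± 0.15 (adjusted p = 0.0039). Foxo1 had 0.48 ± 0.14 in 2iL (adjusted p = 0.0232) and 0.59 ± 0.14 in the knockout (adjusted p = 0.00632). The Foxo1 calls were lost without the second DMSO or first JQ1 library in 2iL (adjusted p = 0.128 and 0.178) and without the first JQ1 library in the knockout (adjusted p = 0.065). Trp53inp1, the relative of Trp53inp2, differed by 0.22 in 2iL, by 0.36 ± 0.13 in the knockout (adjusted p = 0.0471) and by -0.32 in serum/LIF. The knockout call of Trp53inp1 was lost without the second DMSO library (adjusted p = 0.368) or the first JQ1 library (adjusted p = 0.313).

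**Figure D4:**
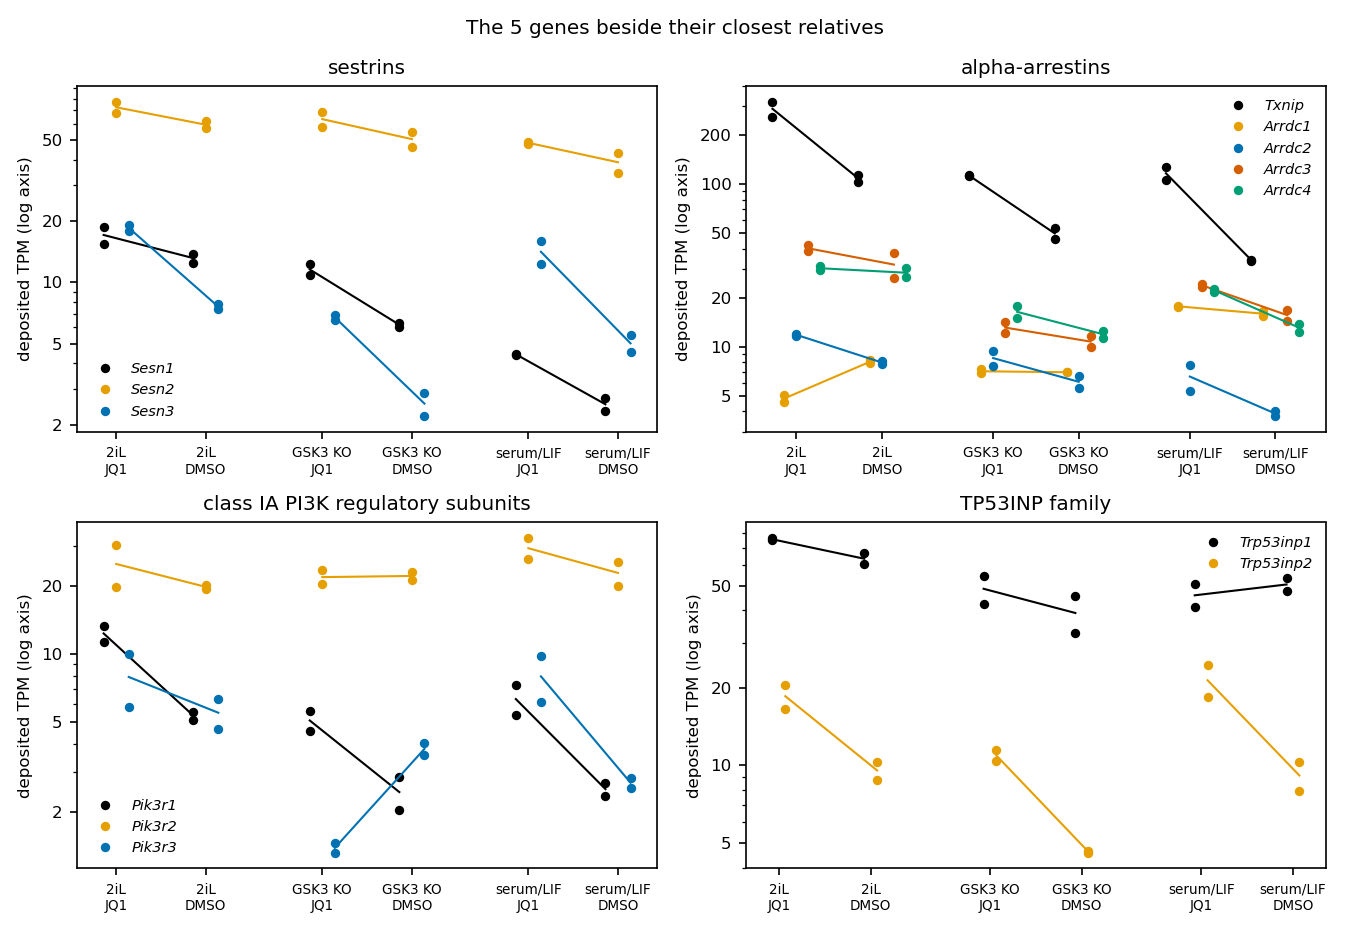
Deposited TPM (log axis) of the 5 genes and their closest relatives in each library, with JQ1 left of DMSO in 2iL, GSK3 knockout and unmodified serum/LIF cells, and lines between the means of 2 libraries. Sesn3, Pik3r1, Trp53inp2 and Txnip slope down to DMSO in each setting, whereas Sesn2 and Pik3r2 lie higher and flatter and Pik3r3 turns the other way in the knockout.

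The 10 lists of other pathway genes held 158 genes, of which 153 were tested. With JQ1, 42 of them rose and 19 fell in 2iL, 47 rose and 18 fell in the knockout, and 20 rose and 11 fell in serum/LIF. These were 27.5% and 12.4% of the 153 in 2iL, beside 11.2% and 17.3% of all genes. In the knockout they were 30.7% and 11.8%, beside 14.6% and 19.5%. In serum/LIF they were 13.1% and 7.2%, beside 8.54% and 12.8%. Counts of single lists below are to be read beside the same shares of all genes, and some lie near them. The median log2 fold change of the pathway genes was 0.14 in 2iL, 0.16 in the knockout and 0.09 in serum/LIF, where that of all genes was -0.06, -0.06 and -0.02. With 1 library left out, 18 to 34 rose and 12 to 20 fell in 2iL, 23 to 33 rose and 7 to 16 fell in the knockout, and 7 to 20 rose and 8 to 10 fell in serum/LIF. The rises were fewest in 2iL without the first DMSO or second JQ1 library, in the knockout without the first DMSO library, and in serum/LIF without the second DMSO library. The falls were fewest in 2iL and in the knockout without the second JQ1 library of each. The JQ1 response differed from that in unmodified serum/LIF cells for 12 pathway genes in 2iL, 8 of them upward, and for 10 in the knockout, 6 of them upward. Of all genes 1.35% differed upward and 2.8% downward in 2iL, and 1.25% and 3.12% in the knockout.

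Around Sesn3, the sestrin, GATOR and Rag list had 7 of 24 genes rise and 2 fall in 2iL, 13 rise and 1 fall in the knockout, and 5 rise and 1 fall in serum/LIF. Its medians were 0.22, 0.40 and 0.13. Without any 1 of the 4 libraries of a setting, 3 to 4 rose in 2iL, 6 to 8 in the knockout and 2 to 3 in serum/LIF, and 1 to 3 fell in 2iL. Rragd, a Rag GTPase that carries the amino acid signal to mTORC1, rose by 1.05 ± 0.21 in the knockout (adjusted p = 0.00238, edgeR), and Castor1, an arginine sensor that binds GATOR2, fell by 0.99 ± 0.15 in 2iL (adjusted p = 0.000409). Around Txnip, the thioredoxin list had 0 of 15 genes rise and 3 fall in 2iL, 9 rise and 1 fall in the knockout, and 2 rise and 1 fall in serum/LIF, with medians of -0.15, 0.43 and 0.06. In the knockout 2 rose without the first DMSO library, 5 without either JQ1 library and 8 without the second DMSO library, and none fell without the second JQ1 library. In 2iL none fell without the first DMSO or second JQ1 library and 2 without either of the others. In serum/LIF none rose without the second DMSO library, 1 without the first DMSO or second JQ1 library and 3 without the first JQ1 library. Glrx, a glutaredoxin, fell by 1.63 ± 0.16 in serum/LIF (adjusted p = 3.74e-05, edgeR). In the glucose entry list 3 of 7 genes rose in 2iL, among them the transporters Slc2a1 (1.10 ± 0.18, adjusted p = 0.000686) and Slc2a3 (0.83 ± 0.19, adjusted p = 0.00706), none rose in the other settings (1 without the second JQ1 library and 1 fell without the first in serum/LIF), and 1 fell in the knockout, a call lost without the second DMSO library or either JQ1 library.

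Around Pik3r1, the class I PI3K and AKT list had 4 of 17 genes rise and 2 fall in 2iL, 2 rise and 4 fall in the knockout, and 2 rise and 2 fall in serum/LIF. In 2iL 2 rose without the first DMSO library or either JQ1 library, and in the knockout 0 to 1 rose without any 1 library. In serum/LIF 4 rose without the second JQ1 library, 3 without the first DMSO library, and 1 fell without either DMSO library or the first JQ1 library. Tcl1, a coactivator of AKT, fell in all 3 settings, with log2 fold changes of -1.35 ± 0.25 in 2iL (adjusted p = 0.00186, edgeR), -1.65 ± 0.27 in the knockout (adjusted p = 0.000745) and -3.06 ± 0.36 in serum/LIF (adjusted p = 0.00014). Of the 7 tested phosphatases that oppose PI3K, 4 rose and 1 fell in 2iL, 0 rose and 1 fell in the knockout, and 1 rose and 1 fell in serum/LIF. In 2iL 1 rose without the first DMSO library or either JQ1 library, and none fell without the second JQ1 library. In serum/LIF 2 rose without the second JQ1 library. Inpp5d, the phosphatase SHIP1, fell by 1.72 ± 0.16 in the knockout (adjusted p = 1.27e-05) and fell by 2.21 ± 0.19 in serum/LIF (adjusted p = 2.37e-05). Inpp4a, of the same list, rose by 0.85 ± 0.16 in 2iL (adjusted p = 0.00239, edgeR) and by 0.77 ± 0.16 in serum/LIF (adjusted p = 0.00557). Of 19 FoxO factors and targets, 8 rose and 3 fell in 2iL, 7 rose and 2 fell in the knockout, and 3 rose and 2 fell in serum/LIF. Without 1 library, 4 to 6 rose and 1 to 4 fell in 2iL, with 4 rises without the second JQ1 library, 5 without the second DMSO library and 1 fall without the first JQ1 library. In the knockout 3 rose without the first JQ1 library and 5 to 7 without the others, and none fell without the first DMSO or second JQ1 library and 1 without the first JQ1 library. In serum/LIF 1 rose without the second DMSO library, and 0 to 3 fell. Bnip3, a mitophagy receptor, rose in 2iL by 1.89 ± 0.29 (adjusted p = 0.000537) and in the knockout by 1.32 ± 0.29 (adjusted p = 0.00391), and Bcl2l11, which encodes the death factor BIM, rose in serum/LIF by 1.17 ± 0.15 (adjusted p = 0.000323).

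Around Trp53inp2, the autophagy list had 5 of 22 genes rise and 2 fall in 2iL, 9 rise and 2 fall in the knockout, and 2 rise and 1 fall in serum/LIF. Without any 1 library, 1 to 3 rose in 2iL, and 5 to 7 rose and none fell in the knockout. In serum/LIF none rose without the second DMSO or first JQ1 library, and 1 rose and none fell without the second JQ1 library. Gabarap, an autophagosome protein of the family that Trp53inp2 binds, rose in the knockout by 0.77 ± 0.13 (adjusted p = 0.000863, edgeR), and its relative Gabarapl1 fell by 0.96 ± 0.18 in 2iL (adjusted p = 0.00213). Thra, a thyroid hormone receptor, fell by 1.37 ± 0.19 in 2iL (adjusted p = 0.000248). The TSC, AMPK and mTOR list had 8 of 22 genes rise and 3 fall in 2iL, 6 rise and 2 fall in the knockout, and 4 rise and 3 fall in serum/LIF. In 2iL 1 rose without the first DMSO or first JQ1 library, 3 without the second JQ1 library and 7, beside 5 that fell, without the second DMSO library. In the knockout 3 rose without the first DMSO or second JQ1 library, and none fell without the first DMSO library or either JQ1 library. In serum/LIF 1 to 3 rose and 2 to 4 fell without 1 library. Ddit4l, a REDD-family inhibitor of mTORC1, fell by 2.46 ± 0.21 in 2iL (adjusted p = 9.01e-06) and fell by 1.43 ± 0.20 in serum/LIF (adjusted p = 0.000445), whereas Ddit4, which encodes REDD1, rose in the knockout by 0.95 ± 0.15 (adjusted p = 0.00063). The arrestin and NEDD4-family list had 2 of 10 genes rise and 2 fall in 2iL, 1 rise and 2 fall in the knockout, and 1 rise and 0 fall in serum/LIF. Without any 1 library, 0 to 1 rose and 1 fell in 2iL, and none rose and 0 to 1 fell in the knockout. In serum/LIF 2 rose without the first JQ1 library and none without the others. The MondoA, ChREBP and Max-network list had 1 of 10 genes rise and 1 fall in 2iL, 0 rise and 2 fall in the knockout, and 0 of either in serum/LIF, where 2 rose and 1 fell without the second JQ1 library. In 2iL 3 rose without the second DMSO library, and in the knockout 1 fell without the first DMSO library or either JQ1 library.

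**Figure D5:**
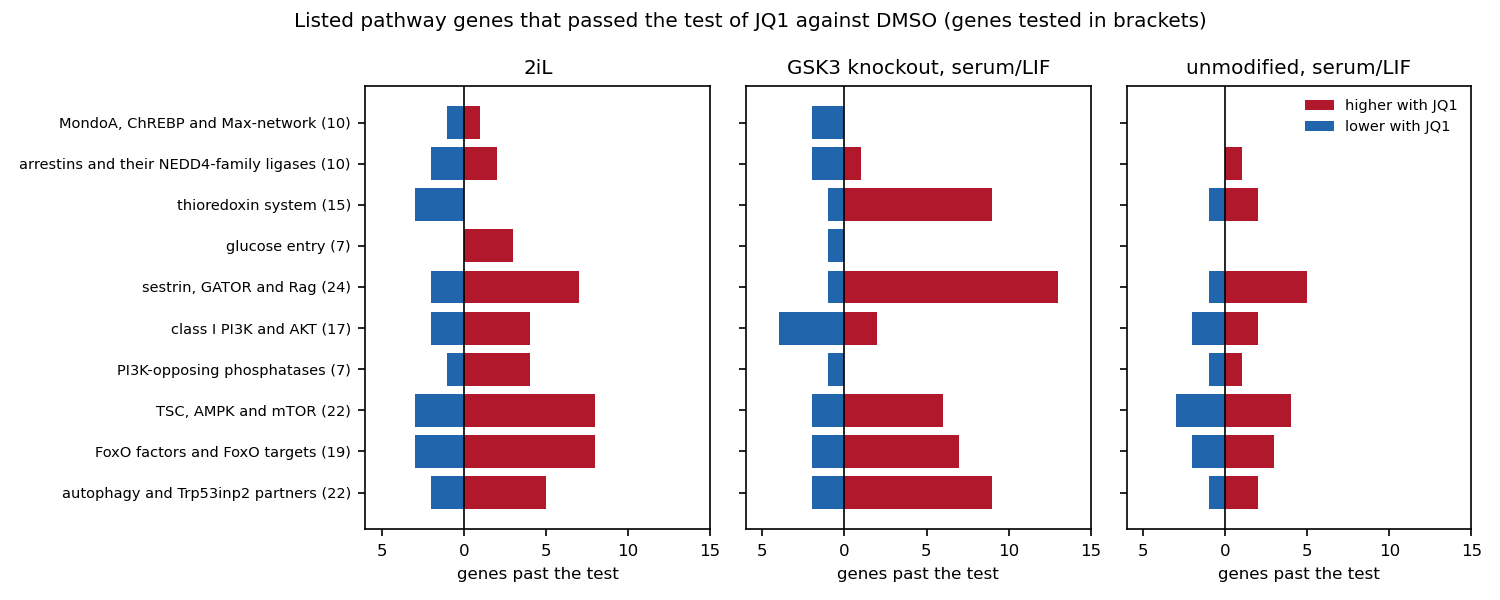
Number of listed pathway genes that passed the test of JQ1 against DMSO (adjusted p under 0.05, linear axis), higher to the right in red and lower to the left in blue, in 2iL, GSK3 knockout and unmodified serum/LIF cells, with the number tested in brackets. The longest bars are the 13 sestrin, GATOR and Rag genes and the 9 thioredoxin and 9 autophagy genes that rose in the knockout, which were 6 to 8, 2 to 8 and 5 to 7 without 1 library.

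In DMSO libraries, 46 of the 153 pathway genes were higher and 40 lower in 2iL than in serum/LIF, and 31 were higher and 43 lower in the knockout than in unmodified cells. These were 30.1% and 26.1% of the list in 2iL, beside 28.3% and 26.5% of all genes, and 20.3% and 28.1% in the knockout, beside 18.9% and 21% of all genes. In the knockout 20 were higher without the first serum/LIF or first knockout library. The class I PI3K and AKT genes were mostly lower in 2iL, where Pik3r1 itself was higher: 12 of 17 passed as lower and 4 as higher, with a median of -1.22 against 0.04 for all genes. Without 1 library, 9 to 12 passed as lower and 3 to 4 as higher. Of the 7 tested phosphatases that oppose PI3K, 2 passed as lower and 2 as higher in 2iL. The insulin receptor substrates Irs1 and Irs2, which bind p85 when phosphorylated, were lower in 2iL (-5.01 ± 0.52 and -3.71 ± 0.31, adjusted p = 3.47e-06 and 4.54e-07, edgeR) and in the knockout (-2.84 ± 0.43 and -3.60 ± 0.31, adjusted p = 0.000194 and 1.87e-06). With DMSO, Irs1 averaged only 0.55 CPM in 2iL and 2.48 CPM in the knockout, against 17.7 ± 7.8 CPM (SD) in unmodified serum/LIF cells. Mlxipl was higher in 2iL by 1.55 ± 0.23 (adjusted p = 9.48e-05), as Txnip and Arrdc4 were, and Mlxip was lower (-0.63 ± 0.17, adjusted p = 0.00556). Foxo1 was lower in 2iL (-1.05 ± 0.14, adjusted p = 3.57e-05) and Foxo3 higher (0.97 ± 0.15, adjusted p = 0.000116). The calls named here for Irs1, Irs2, Mlxipl, Mlxip, Foxo1 and Foxo3 held without any 1 of the libraries compared. Fibroblast and trophoblast markers differed between these cultures as given above, and the part of other cells in these pathway differences was not tested.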

How the data were processed

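RNA was measured in 12 libraries by poly(A) RNA-seq. The authors deposited gene tables with expected counts from RSEM and TPM, which is scaled by transcript length and library total. Per the submitters' processing notes the tools were bcl2fastq, STAR 2.5.2, RSEM and DESeq2 1.18.1, with mm10 as the build; annotation and strand setting are not given in the sources used here. Symbols came from GENCODE M21 by identifier without version (99.72% of 52550 matched).

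Expected counts were rounded and fitted for all 6 groups together in edgeR 4.0.16 (R 4.3.3, quasi-likelihood test, TMM, Benjamini-Hochberg over 16987 genes, threshold 0.05; low genes were removed with filterByExpr, count 10 and total 15). Members and lists were chosen with earlier results of these data known. In each list at most the 2 genes furthest from 0 with 5 CPM in a group were eligible to be named; of these the text names genes whose call held without any 1 library, a criterion added after their values were seen, and the members' nearest relatives in any case, except 1 that is not reported here. Pathway genes exclude the 5 members. Alternatives were DESeq2 1.42.0, RLE factors, other filters, only the libraries compared, a replicate block, a fold threshold, each library left out, deposited TPM for the members and, chosen after seeing the data, a fit without mitochondrially encoded genes. In simulated data, 75.3% of changes of log2 size 1 were recovered for JQ1 in serum/LIF. For the JQ1 response in 2iL minus serum/LIF the share was 54.7%. All groups were drawn from the same mean level per gene apart from 200 changed genes, fewer than passed in the data. Promoter windows are from RefSeq, GRCm38.p6.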

Additional observations from a re-analysis of the deposited data

Results flagged for a closer look

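The JQ1 response differed between settings for 22 pathway results, by edgeR's test of the difference itself, adjusted over all genes. For 2iL minus serum/LIF, the log2 difference was 1.136 for Ulk1, 0.615 for Pik3r4, 1.706 for Tcl1, 1.672 for Bnip3, 1.395 for Slc2a1, 1.568 for Inpp5d, 0.939 for Glrx and 1.362 for Deptor, and -0.938 for Bcl2l11, -1.738 for Mlxipl, -1.293 for Castor2 and -3.335 for Prr5l. For knockout minus unmodified cells it was 0.951 for Ulk1, 0.931 for Gabarap, 0.817 for Lamtor5, 1.77 for Glrx, 1.367 for Ddit4 and 1.264 for Ddit4l, and -2.369 for Pik3r3, -1.489 for Pik3cd, -1.302 for Bcl6 and -1.377 for Srxn1. Of these, 7 held in every fit that left out 1 library (Ulk1, Slc2a1, Inpp5d and Castor2 in 2iL, and Pik3r3, Glrx and Ddit4 in the knockout), and 15 were lost in at least 1.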

How the results depend on the processing

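The number of members past the test, 3 in each DMSO comparison, stayed within 1.5 times under every alternative run, a bound that lets a member come or go. Arrdc4 (0.81) dropped out for 2iL minus serum/LIF, and Txnip (0.59) for knockout minus unmodified, where a log2 fold change of at least 1 was also required. With a log2 fold change of at least 1 also required, the pathway genes passed numbered 8 in serum/LIF, 14 in 2iL and 9 in the knockout with JQ1, 43 for 2iL minus serum/LIF and 29 for knockout minus unmodified. With only the libraries compared, 18 passed with JQ1 in serum/LIF and 7 for the response in 2iL minus serum/LIF. Without the low-count filter, 22 response differences passed in 2iL and 30 in the knockout, and DESeq2 gave 22 in the knockout. Leaving out 1 library gave 17 to 28 in serum/LIF, 30 to 54 in 2iL and 31 to 49 in the knockout with JQ1, and 4 to 11 and 4 to 25 response differences. The cause was not tested. With the replicate number as a block, 34, 65 and 70 pathway genes passed with JQ1 in serum/LIF, 2iL and the knockout, and 3 members passed in each DMSO comparison. The numbers were not shown to pair libraries, since same-numbered deviations correlated at -0.171 to 0.161. Under the block, Arrdc2 and Arrdc3 passed with JQ1 in the knockout (adjusted p = 0.0442 and 0.0419, edgeR), and Arrdc3 and Pik3cb in serum/LIF (adjusted p = 0.0308 and 0.0444). With only the libraries compared, the calls of Arrdc1 in 2iL (adjusted p = 0.0654) and Pik3cd in serum/LIF (0.0587) were lost, and Arrdc2 (0.014), Arrdc3 (0.00475) and Mlx (0.0241) passed in the knockout. The strict filter ended those of Sesn2 (0.0607) and Trp53inp1 (0.065) in the knockout. Without a low-count filter Arrdc2 and Arrdc3 passed in the knockout (0.0402 and 0.0116), and Arrdc3, Pik3cb and Mlxip in serum/LIF (0.00706, 0.00201 and 0.0493).

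Values that turned sign lay near 0 and had not passed. Sesn3 in 2iL minus serum/LIF was -0.016 with DESeq2, -0.018 with RLE, -0.011 with only the libraries compared, -0.002 without mitochondrially encoded genes and -0.316 to 0.264 without 1 library. On deposited TPM, Trp53inp2 was 0.065 in 2iL minus serum/LIF and Pik3r1 -0.044 in knockout minus unmodified. Without 1 library, knockout minus unmodified ran from -0.148 to 0.056 for Arrdc4 and from -0.108 to 0.245 for Pik3r1. With JQ1, such ranges in serum/LIF were -0.164 to 0.045 for Arrdc1, -0.004 to 0.101 for Pik3ca and -0.118 to 0.282 for Txn1. In 2iL they were -0.268 to 0.169 for Arrdc3 and -0.034 to 0.207 for Txn1. In the knockout they were -0.051 to 0.085 for Arrdc1, -0.123 to 0.05 for Pik3ca, -0.244 to 0.039 for Mlxip and -0.109 to 0.251 for Foxo3. Arrdc1 there was -0.024 with the strict filter, and Pik3ca 0.003 without a filter.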

Other observations

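The mean transcript length that the deposited tables give for Arrdc4, which weights its transcripts of 3905 and 1129 bases by abundance, was higher with JQ1 than with DMSO in each setting. It was 2657 and 2775 bases with JQ1, against 2336 and 2253 bases with DMSO in 2iL. It was 2861 and 2973 bases with JQ1, against 2453 and 2771 bases with DMSO in the knockout. In unmodified serum/LIF cells it was 3336 and 2860 bases with JQ1, against 2529 and 2455 bases with DMSO. The groups did not overlap in these settings, and the difference was not tested. Of 9685 genes with at least 10 expected counts in every library and a length that varied, both JQ1 lengths were above both DMSO lengths for 18.3% in 2iL, 27% in the knockout, 21.4% in serum/LIF and 1.46% in all 3. Of the other 4 genes, Txnip did so in the knockout and serum/LIF, Trp53inp2 in the knockout, and Sesn3 and Pik3r1 in none.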
